A study of Rattus norvegicus with 9 samples.

Results

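The 7 B cell marker genes Cd79a, Cd79b, Cd22, Ms4a1, Pax5, Blk and Pou2af1 were followed in the livers of old and young male rats. They were taken from a deposited table of raw read counts by exact match of the gene symbol, and all 7 symbols were found among the 23479 in the table. The 9 animals were Wistar rats, an outbred laboratory strain, with 4 livers in the old group (24 months, old 1 to 4) and 5 in the young group (6 months, young 1 to 5). No treatment or genotype was named for either group. Poly(A) RNA of whole liver was sequenced, and the series design describes the samples as separate animals. The comparison asks how the transcripts of B cells in liver differ between these ages.

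B cells carry an antigen receptor made of membrane immunoglobulin and a signalling pair, CD79A and CD79B, whose cytoplasmic tails are phosphorylated when antigen is bound. BLK is a kinase of the Src family that acts near this receptor, and CD22 is a sialic acid binding protein that dampens its signal. MS4A1 (CD20) is a surface protein of mature B cells, PAX5 is the transcription factor that maintains B cell identity, and POU2AF1 is a coactivator of octamer-binding factors in B cells. In liver, B cells are a small part of the lymphocytes that reside in or pass through the sinusoids and portal tracts.

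Library totals were 18586798 to 32882704 reads in old and 18942191 to 25215805 reads in young livers. Counts are given below as reads and as CPM, the count over the TMM-adjusted total of its library. A library with no read of a gene could still hold up to 3 reads, the floor used here, and 3 reads correspond to 0.106 to 0.173 CPM depending on the library. All counts of old 1 were even, while the other 8 libraries each held 8112 to 8350 odd counts. The lowest count above 0 in old 1 was thus 2. The floor and the counting error used here took these even counts as deposited, and why they were even was not tested. The labelled tissue was borne out by 12 of 12 hepatocyte markers with reads, summing to 224326 to 344105 CPM in old and 192272 to 216729 CPM in young livers. Monocyte and neutrophil markers stood apart in old 3, and heart muscle markers differed among the young livers. Reads were not divided by transcript length, so that reads of different genes are not compared as levels.

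Apart from Cd22 and Blk, the 7 genes lay near the floor. Cd79a had 2 reads in the 4 old livers together and 0 in the 5 young livers. In the old livers together, Ms4a1 had 17 reads, Pax5 11, Pou2af1 52, Cd79b 64 and Blk 180. In the young livers together, Ms4a1 had 10 reads, Pax5 7, Pou2af1 21, Cd79b 16 and Blk 135. Cd22 had 11165 reads in old and 7522 in young livers, and made up 85.9% to 99.0% of the reads of the 7 genes in old and 91.0% to 98.9% in young livers. A sum over the 7 genes is therefore mostly Cd22, and the genes are described one by one.

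**Figure D1:**
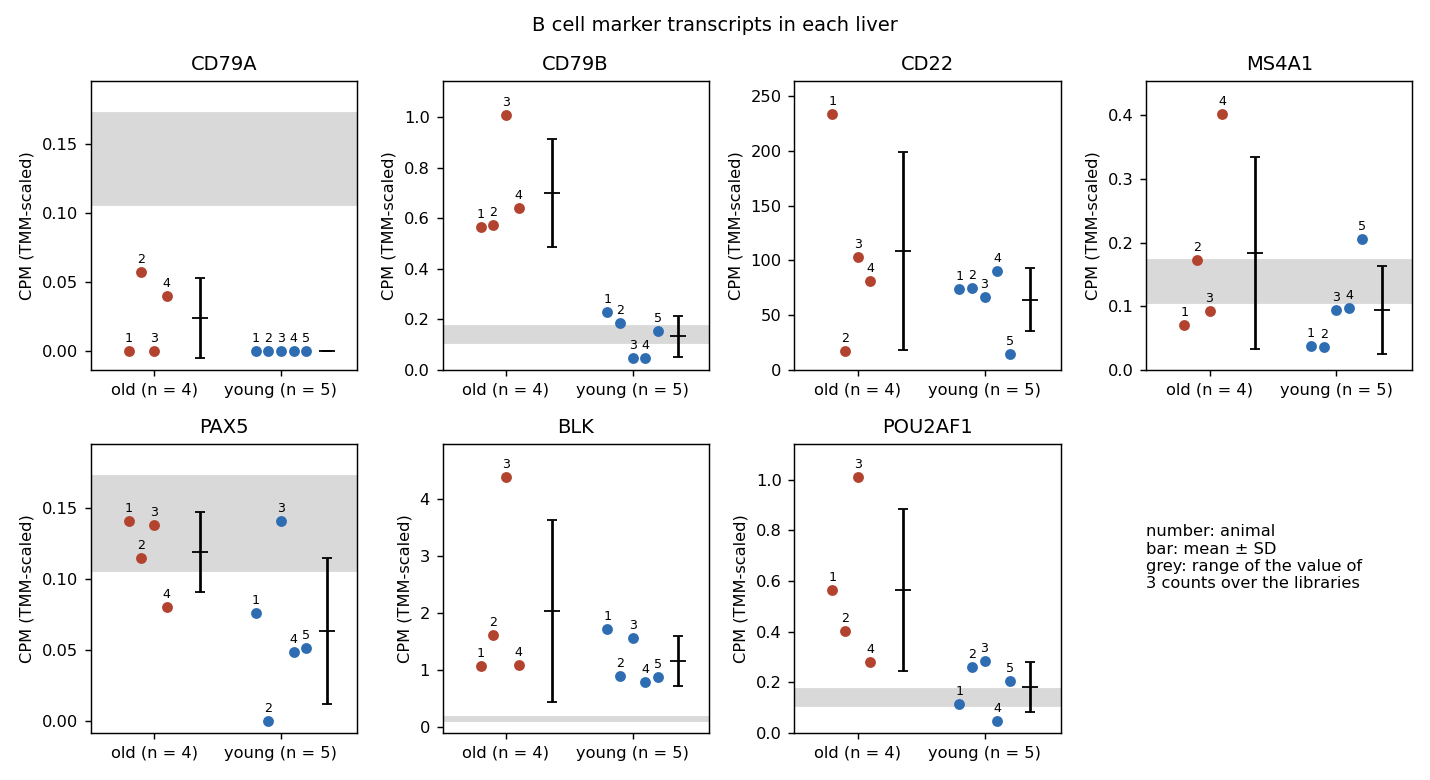
TMM-scaled CPM (vertical axes, linear, one scale per gene) of the 7 B cell marker genes in each liver, old on the left and young on the right. Points carry the animal's number, bars are mean ± SD, and the grey band spans the value of 3 reads over the libraries. Cd79b is the gene whose old and young values do not overlap, while Cd79a, Ms4a1 and Pax5 lie mostly at or under the band.

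Of the receptor pair, Cd79b was higher in every old liver than in any young liver. It had 16, 10, 22 and 16 reads in old 1 to 4, which is 0.564, 0.575, 1.01 and 0.641 CPM. It had 6, 5, 1, 1 and 3 reads in young 1 to 5, which is 0.229, 0.185, 0.0471, 0.0486 and 0.154 CPM. The old values lay above the floor in each library, and 2 of the 5 young libraries lay under it. The means were 0.699 ± 0.213 CPM in old and 0.133 ± 0.0819 CPM in young livers (SD, n = 4 and 5). Counting error alone would give an SD of about 0.173 CPM in old and 0.0781 CPM in young livers. In bulk tissue, fewer B cells and less of a transcript in each B cell cannot be told apart.

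By edgeR's quasi-likelihood test over 12778 genes, Cd79b had a log2 fold change of 2.30 ± 0.44 (SE) and lay under the threshold (adjusted p = 0.0437). Over all 18071 genes with a read, without the low-count filter, it lay above it (adjusted p = 0.0555). The test over 12778 genes called 0.657% of them higher and 0.344% lower in old livers. An exact two-sided permutation test of the CPM difference gave p = 0.0159, the smallest that the splits of 9 livers into these group sizes allow. This p and those for the other members below are single tests without adjustment. Groups that did not overlap with old above young were seen for 2.88% of the 18071 genes with a read (5.27% in either direction), and for 1 of the 7 marker genes. Cd79b passed edgeR's low-count filter through the old livers only. The filter asked for 0.429 CPM of the unscaled total in 4 libraries, which 4 old and 0 young livers reached, so that a gene this low in young livers could be tested only if it was higher in old ones.

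The call on Cd79b lay close to the threshold of 0.05. It held without young 1 (adjusted p = 0.0475) and was lost when any 1 of the other 8 livers was left out (0.0507 to 0.107), with log2 fold changes of 2.07 to 2.58 over these 9 fits. It was lost without the filter and with limma-voom (0.0520), and held with DESeq2 (0.00336). With the even counts of old 1 halved, the gene fell under the filter and was not tested. Markers of heart muscle, 25 of 25 of which had a read, summed to 6.65 to 9.36 CPM in old livers. In young 1 they summed to 17.8 CPM, and in the other young livers to between 120 and 150 CPM. With young 1 as the only young liver, the log2 fold change of Cd79b was 1.60 ± 0.79 (edgeR adjusted p = 0.997), young 1 being assumed to vary like the old livers.

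**Figure D2:**
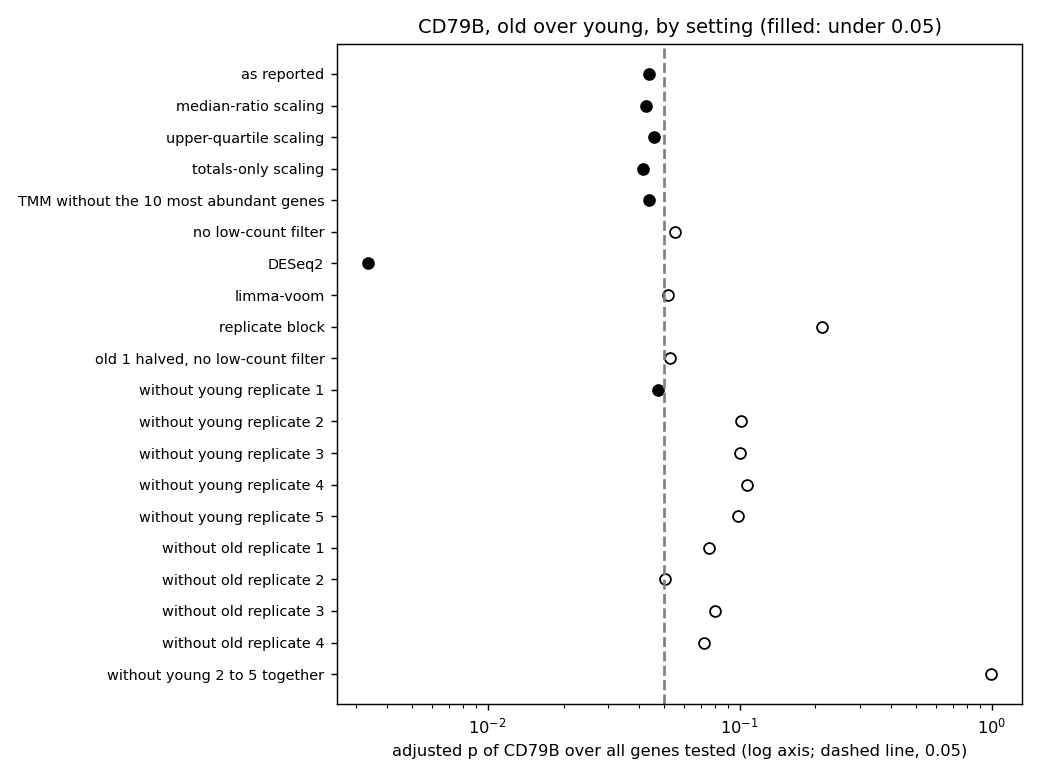
Adjusted p of Cd79b over all genes tested (horizontal axis, logarithmic) under each setting that gave a value. The dashed line marks 0.05 and filled points lie under it. The reported fit and the other scalings sit just left of the line, DESeq2 far left at 0.00336, and most fits that leave out a liver right of it.

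Cd79a, the partner of Cd79b in the receptor, had next to no reads. It had 0, 1, 0 and 1 reads in old 1 to 4 and 0 reads in each of young 1 to 5. No library reached 3 reads, so no fold change is given, and a difference was not detectable at this depth (exact permutation p = 0.333). The old livers held 64 reads assigned to Cd79b and 2 assigned to Cd79a. The proteins work as a pair, but these reads were not divided by transcript length and are not compared as levels.

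Cd22, the inhibitory receptor, behaved unlike the other 6 genes. It had 6596, 310, 2237 and 2022 reads in old 1 to 4, which is 233, 17.8, 103 and 81.0 CPM. It had 1944, 2022, 1410, 1854 and 292 reads in young 1 to 5, which is 74.1, 75.0, 66.5, 90.1 and 15.0 CPM. Old 2 and young 5 were low, old 1 was high, and the groups overlapped. The means were 109 ± 90.2 CPM in old and 64.1 ± 28.8 CPM in young livers (SD, n = 4 and 5), where counting error alone would give an SD of about 2.29 and 1.69 CPM. The log2 fold change was 0.76 ± 0.66 (edgeR adjusted p = 0.593) and the exact permutation p was 0.365. Without old 1 the log2 fold change was 0.07 (adjusted p = 0.970), and without old 2 it was 1.11 (adjusted p = 0.328).

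The order of the livers by Cd22 was not that of Cd79b or Blk. Over 9 libraries, the likeness of profiles was measured as the root mean square difference of log2 CPM standardised over the libraries, in units of SD, so that smaller values mean more alike. The 5 genes closest to Cd22 among 12778 were LOC102557170 (0.229), LOC102555851 (0.247), LOC102557282 (0.285), LOC100361234 (0.321) and Arl16 (0.397), the last a small GTPase gene of the ARF-like family. Cd79b came at 1.30 (rank 4813) and Blk at 1.33 (rank 5358). LOC102557170 had 2.24 CPM in old 2 and 1.18 CPM in young 5, the same livers in which Cd22 was low, and 29.6 to 90.2 CPM in the other 7. The LOC symbols had no match in the annotation used here, and no role is given for them.

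**Figure D3:**
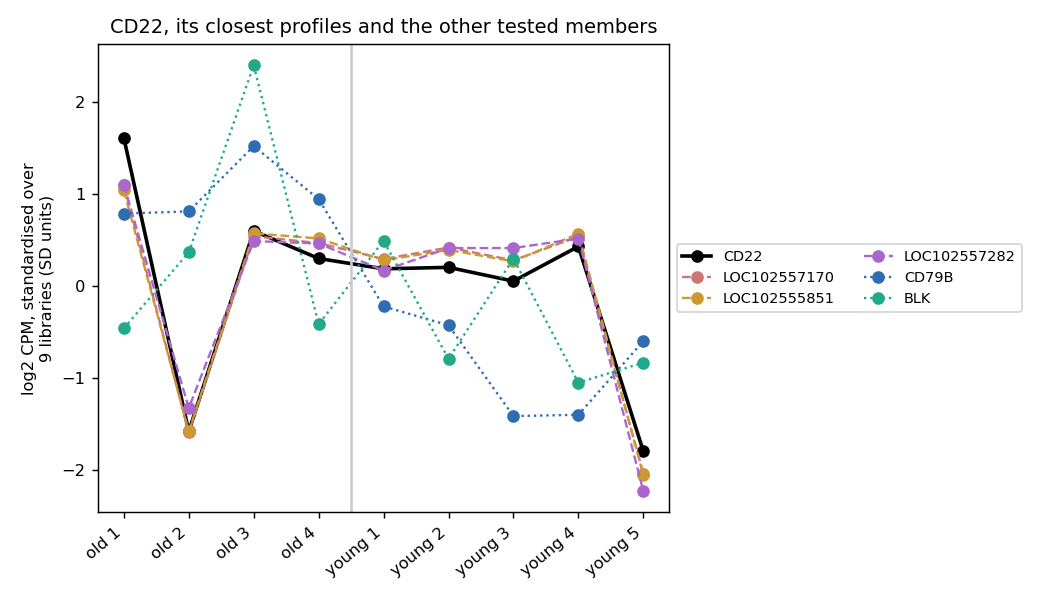
Log2 CPM of each gene standardised over the 9 libraries (vertical axis, SD units) by liver (horizontal axis, old left of the grey line). Cd22 (black) and the 3 LOC genes closest to it (dashed) drop together in old 2 and young 5, where Cd79b and Blk (dotted) do not.

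In the RefSeq annotation of the GRCr8 assembly, the neighbours of Cd22 are Ffar1, a fatty acid receptor gene, and Mag, a myelin glycoprotein gene. Ffar1 had 0 reads in all 9 livers, and Mag had 0 to 12 reads in old and 0 to 13 in young livers. The numbers of reads at Cd22 were thus not shared by the genes beside it. The annotation, the aligner's settings and the treatment of reads with several matches behind the count table are not given in the sources used here, and what the reads named CD22 came from was not tested. As counted here, Cd22 did not follow the other tested members over the livers.

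The promoters of the gene with the fewest reads and of the gene with the most are shown, since these genes differ most in the table and are the 2 of 7 with an entry in the promoter table used. The sequences are RefSeq's on GRCr8, 250 bases before to 50 bases after the transcript start of that table. Cd79a lies at chr1:89621210-89621509 on the plus strand and Cd22 at chr1:95259681-95259980 on the minus strand, and capitals mark a matched motif.
Cd79a: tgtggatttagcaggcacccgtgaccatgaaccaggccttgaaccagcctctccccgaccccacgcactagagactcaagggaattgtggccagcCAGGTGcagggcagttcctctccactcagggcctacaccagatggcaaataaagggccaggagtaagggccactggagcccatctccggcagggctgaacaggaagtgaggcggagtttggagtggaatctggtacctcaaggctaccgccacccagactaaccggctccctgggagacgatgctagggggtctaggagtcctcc
Cd22: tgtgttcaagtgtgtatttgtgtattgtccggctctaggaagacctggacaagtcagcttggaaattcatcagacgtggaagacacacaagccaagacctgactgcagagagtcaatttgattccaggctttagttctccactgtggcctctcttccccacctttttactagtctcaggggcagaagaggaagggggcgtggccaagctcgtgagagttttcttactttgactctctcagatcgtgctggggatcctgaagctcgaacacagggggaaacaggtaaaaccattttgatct
Both strands were searched for the octamer ATGCAAAT, bound by the factors that POU2AF1 assists, for CCCNNGGG, a core of sites of the B cell factor EBF1, and for the E-box CAGGTG. The Cd79a window held 1 E-box, beginning 155 bases before the start, and no octamer or CCCNNGGG. The Cd22 window held none of the 3 motifs. Of 33469 RefSeq promoters of this length, 18.8% held the E-box, 12.4% CCCNNGGG and 1.78% the octamer. No overlap between motifs arose in the 2 windows. GC content was 60.0% for Cd79a and 48.7% for Cd22.

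The kinase gene Blk stood apart in 1 liver. It had 30, 28, 95 and 27 reads in old 1 to 4, which is 1.06, 1.61, 4.38 and 1.08 CPM. It had 45, 24, 33, 16 and 17 reads in young 1 to 5, which is 1.71, 0.890, 1.56, 0.777 and 0.872 CPM. All old livers apart from old 3 lay within the young range. The log2 fold change was 0.79 ± 0.47 (edgeR adjusted p = 0.433, exact permutation p = 0.286), and it was 0.09 without old 3 (adjusted p = 0.916).

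Among the transcription factors, Pou2af1 had higher values in old livers and Pax5 lay at the floor. Pou2af1 had 16, 7, 22 and 7 reads in old 1 to 4, which is 0.564, 0.402, 1.01 and 0.281 CPM. It had 3, 7, 6, 1 and 4 reads in young 1 to 5, which is 0.114, 0.260, 0.283, 0.0486 and 0.205 CPM. The groups overlapped by the lowest old and the highest young liver alone. The means were 0.565 ± 0.321 CPM in old and 0.182 ± 0.0989 CPM in young livers (SD, n = 4 and 5), and the exact permutation p was 0.0317. That p lay above 0.05 in 7 of the 9 tests that left out a liver (0.0571 to 0.0714), and under it without old 4 (0.0357) and without young 3 (0.0286).

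Pou2af1 did not pass the low-count filter, and in the fit over all 18071 genes with a read its log2 fold change was 1.59 ± 0.53 (edgeR adjusted p = 0.210). Pax5 had 4, 2, 3 and 2 reads in old 1 to 4 and 2, 0, 3, 1 and 1 reads in young 1 to 5. Under the floor were 2 of 4 old and 4 of 5 young libraries, with the even count of old 1 taken as deposited. For Pax5 the groups overlapped. In the same fit its log2 fold change was 0.87 ± 0.71 (adjusted p = 0.600), and the exact permutation p was 0.0952, falling to 0.0286 without young 3.

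Ms4a1, the CD20 gene, was as sparse. It had 2, 3, 2 and 10 reads in old 1 to 4 and 1, 1, 2, 2 and 4 reads in young 1 to 5. Old 4 was the highest, and the other old livers lay within the young range, with 0.184 ± 0.151 CPM in old and 0.0943 ± 0.0684 CPM in young livers (SD, n = 4 and 5). Its log2 fold change over all genes with a read was 0.99 ± 0.70 (edgeR adjusted p = 0.557) and the exact permutation p was 0.365.

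Of the 7 members, 3 were tested past the filter (Cd79b, Cd22 and Blk), with 1 called higher (Cd79b, which only a higher level in old livers could bring past the filter) and 0 lower, and 4 were not (Cd79a, Ms4a1, Pax5 and Pou2af1). Without the filter all 7 could be tested, and by edgeR 0 were called, with 2 at an unadjusted p under 0.05 (Cd79b and Pou2af1). In that fit 0.636% of genes were called, 0.398% higher and 0.238% lower in old livers, and 13.3% had an unadjusted p under 0.05. The other tools, run with the filter, called 1 (DESeq2) and 0 (limma-voom) of 3 members. DESeq2 called 5.13% of all genes, 3.02% higher and 2.11% lower in old livers.

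**Figure D4:**
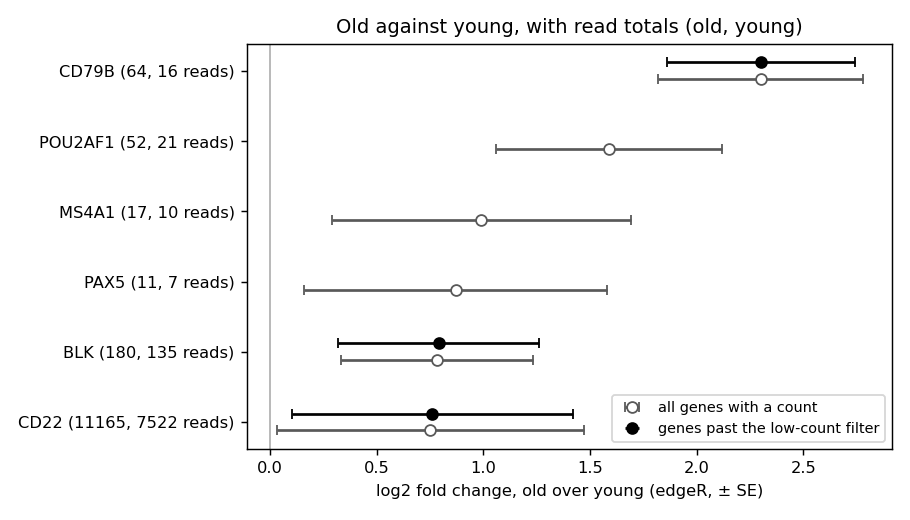
Log2 fold change, old over young (horizontal axis, edgeR, ± SE), of 6 B cell marker genes, with the reads of the old and the young livers beside each name. Filled points come from the fit of genes past the low-count filter and open points from the fit of all genes with a read. Cd79a is left out because no library reached 3 reads. Cd79b lies at 2.30 and the other 5 between 0.75 and 1.59.

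Other genes of B cell signalling had mostly higher values in old livers, without a call by edgeR. Of 21 surface and signalling genes in the table, 14 could be tested, and 12 of these had a fold change above 0, with a median log2 fold change of 0.79 beside 0.01 over all genes tested. By edgeR 0 were called, 6 had an unadjusted p under 0.05, and DESeq2 called 2 higher and limma-voom 0. Over all 12778 genes tested, 15.9% had an unadjusted p under 0.05 by edgeR and 6537 had a fold change above 0. Limma-voom called 68 of the 12778. These values apply to the lists below as well. Without old 3 the median of the surface and signalling genes was 0.18. Cd37, a tetraspanin of B cells and other leukocytes, had 3.38, 2.24, 5.67 and 1.92 CPM in old 1 to 4 and 1.22, 1.11, 1.56, 1.41 and 1.03 CPM in young 1 to 5 (log2 1.39 ± 0.32, adjusted p = 0.0744).

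Cxcr5, the receptor that draws B cells into follicles, had 2.82, 2.53, 2.26 and 2.89 CPM in old and 1.18, 1.41, 1.56, 1.85 and 1.08 CPM in young livers (log2 0.89 ± 0.21, edgeR adjusted p = 0.0798). For both genes every old liver lay above every young one, a pattern seen for 3.40% of the genes tested (6.52% in either direction), and both were picked for the smallest p in their list. Swap70, a signalling protein of activated B cells and the most abundant of the list by CPM, had 32.1 ± 2.85 CPM in old and 36.2 ± 1.11 CPM in young livers (adjusted p = 0.334).

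Of 11 other B cell transcription factors in the table, 8 were tested, with 0 called by edgeR, 4 at an unadjusted p under 0.05, 1 called lower by DESeq2 and 0 called by limma-voom. The median was 0.74 with 7 of 8 above 0, beside 6537 of 12778 over all genes tested, and 0.34 without old 3. Spib, an ETS factor of B cells and plasmacytoid dendritic cells, had 0.690 ± 0.111 CPM in old and 0.413 ± 0.0828 CPM in young livers (adjusted p = 0.224). The exception in direction was Bcl6, a repressor that germinal centre B cells need and that hepatocytes also express. It had 3.38, 24.4, 5.58 and 7.82 CPM in old 1 to 4 and 29.1, 12.8, 76.5, 68.8 and 85.6 CPM in young 1 to 5, a log2 fold change of -2.42 ± 0.71 (edgeR adjusted p = 0.150).

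Plasma cell genes had a median of 0.28 over 8 tested of 10 in the table, with 0 called by edgeR, 2 at an unadjusted p under 0.05, 1 called higher by DESeq2 and 0 by limma-voom. Sdc1 and Xbp1, which hepatocytes also express, had the smallest p, with 238 ± 61.4 CPM in old and 151 ± 18.3 CPM in young livers for Sdc1 (edgeR adjusted p = 0.114). Xbp1 had 217 ± 69.5 CPM in old livers and 141 ± 38.2 CPM in those of young rats (adjusted p = 0.255). Of the 7 B cell precursor genes, 2 could be tested and neither was called by edgeR (0 at an unadjusted p under 0.05), DESeq2 or limma-voom. These were Cd93, which endothelial cells also express, with 10.5 ± 6.28 CPM in old and 15.3 ± 1.71 CPM in young livers (adjusted p = 0.563), and the interleukin receptor gene Il7r, with 4.53 ± 3.36 CPM in old and 3.54 ± 1.82 CPM in young livers (adjusted p = 0.759). Transcripts of the immunoglobulin chains were not analysed here. Of genes that organise lymphoid tissue, 9 of 12 were tested, with a median of 0.98 and 0.54 without old 3. By edgeR 0 were called, 4 had an unadjusted p under 0.05, and DESeq2 called 2 higher and limma-voom 0.

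Among these, the chemokine gene Ccl21 had 4.72 ± 3.30 CPM in old and 1.56 ± 0.784 CPM in young livers (adjusted p = 0.177). Ltbr, the lymphotoxin beta receptor gene and the most abundant of the list by CPM, had 127 ± 29.4 CPM in old and 129 ± 4.88 CPM in young livers (adjusted p = 0.956).

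Summed markers of other leukocytes were highest in old 3, apart from the plasmacytoid list. Of the members, Blk, Cd79b and Pou2af1 were highest in old 3, and Cd79a, Cd22, Ms4a1 and Pax5 were not. Without Cd22, the other 6 B cell markers summed to 2.40, 2.93, 6.64 and 2.53 CPM in old 1 to 4 and 2.17, 1.37, 2.12, 1.02 and 1.49 CPM in young 1 to 5. Blk made up 4.38 of the 6.64 CPM in old 3. Without Cd22 and Blk, the other 5 markers summed to 1.34, 1.32, 2.26 and 1.44 CPM in old 1 to 4. In young livers these 5 summed to 0.243 to 0.615 CPM. Both sums were formed after the values were seen and are a description. The 24 T cell markers summed to 35.0 to 93.1 CPM in old and 22.7 to 37.9 CPM in young livers, and were highest in old 3. The natural killer and cytotoxic markers (20 of 21 with a read, Gzmc at 0) summed to 22.6 to 48.1 CPM in old and 11.1 to 18.6 CPM in young livers. The monocyte and neutrophil markers (16 of 17 with a read, Ly6c at 0) summed to 331 CPM in old 3 and 23.6 to 32.1 CPM in the other old livers, beside 19.2 to 36.5 CPM in young livers. The Kupffer cell and macrophage markers (18 of 19 with a read, Cd5l at 0) summed to 179 to 1215 CPM in old and 319 to 608 CPM in young livers. The 6 plasmacytoid dendritic cell markers summed to 209 to 432 CPM in old and 164 to 247 CPM in young livers. The 9 markers shared by all leukocytes summed to 182 CPM in old 3, 66.4 to 81.4 CPM in the other old livers and 46.3 to 80.9 CPM in young livers.

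The part of these cells in the values of the B cell genes was not tested. Without old 3 the median log2 fold change was 0.86 beside 0.84 for T cell markers. For natural killer and cytotoxic markers it was 1.06 beside 1.22. It was 0.41 beside 2.08 for monocyte and neutrophil, 0.20 beside 0.73 for Kupffer cell and 0.32 beside 0.82 for pan-leukocyte markers. The low-count filter was run again without old 3. It left 12 beside 13 natural killer and cytotoxic genes and 8 beside 9 monocyte and neutrophil genes, so these medians are not over the same genes. Without old 3 the log2 fold change of Cd79b was 2.07 ± 0.46 (edgeR adjusted p = 0.0802), beside 2.30 with it. For Blk it was 0.09 beside 0.79.

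**Figure D5:**
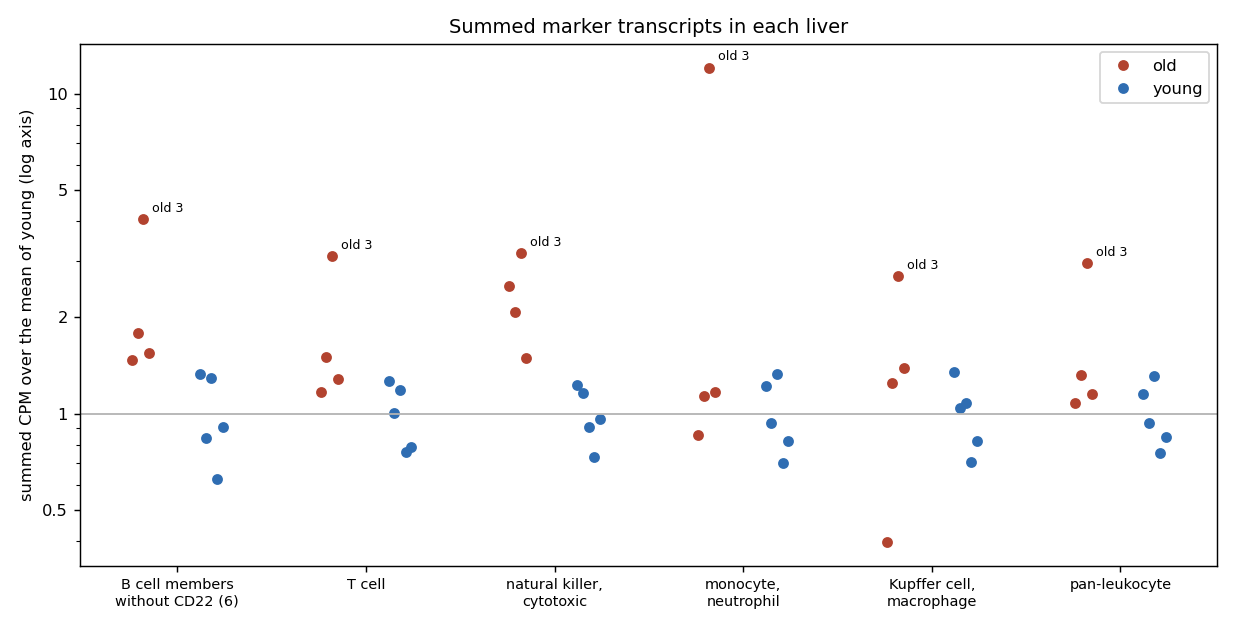
Summed CPM of each marker list in each liver, divided by the mean of the young livers (vertical axis, logarithmic), for the 6 B cell markers without Cd22 and for lists of other leukocytes. Old 3 is the highest liver for each sum, most of all for monocyte and neutrophil markers (331 CPM). In the B cell sum of old 3, Blk gives 4.38 of 6.64 CPM.

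By the same measure of likeness, the 5 genes closest to Cd79b were Hbb-b1 (0.295), Stat3 (0.338), Sp140 (0.348), Alas2 (0.349) and Slc14a1 (0.365). Hbb-b1 and Alas2 encode a red cell globin and the red cell enzyme of haem synthesis, Stat3 a transcription factor of cytokine signalling, Sp140 a nuclear body protein of lymphocytes and Slc14a1 a urea transporter. Each of the 5 was higher in all old than in all young livers, a pattern seen for 3.40% of the genes tested. They were picked for profiles like that of Cd79b, which has this pattern, so it is no separate result. Slc14a1, with 1 to 5 reads in each young liver, passed the low-count filter through the old livers only, as Cd79b did. Sp140 had 8.83 ± 0.942 CPM in old and 3.80 ± 0.457 CPM in young livers (SD, n = 4 and 5). Erythroid markers (10 of 11 with a read, Gata1 at 0) summed to 590 to 2473 CPM in old and 78.6 to 444 CPM in young livers, and their part in the value of Cd79b was not tested. Of the other tested members, Blk came at 0.949 from Cd79b and Cd22 at 1.30.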

How the data were processed

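Poly(A) RNA of 9 livers was sequenced, and per the labels the kits were RNeasy (Qiagen) for extraction and TruSeq RNA (Illumina, strand not marked) for the libraries. The authors deposited raw counts per gene symbol. Reads were aligned with BWA, per the submitters' processing notes. Its version, the genome build, annotation and counter are not given in the sources used here, so reads shared with overlapping or similar genes are uncertain. The p-values measure the spread between animals.

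Genes were kept with filterByExpr (minimum count 10, minimum total 15), scaled with TMM and tested with edgeR's robust quasi-likelihood F test over all 9 libraries. Benjamini-Hochberg adjustment ran over every gene tested, with 0.05 as the threshold. The SE is the size of the log2 fold change divided by the root of F. Exact permutation tests were two-sided over all splits of the 9 livers. The floor covers counting error only. RefSeq (GRCr8) gave symbols, neighbours and promoters, and 7 of 7 members matched.

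Members, lists and alternatives were chosen with earlier results of these data known. Named genes are the members, listed B cell genes that passed, the 2 with the smallest p and the most abundant of each B cell list, and the 5 genes most like Cd22 and Cd79b. Some genes that the rule names are not reported here. Log2 CPM for likeness used a prior count of 2. Alternatives covered scaling, filters, tools and left-out libraries. The fits used edgeR 4.0.16 and, as alternatives, DESeq2 1.42.0 and voom in limma 3.58.1, under R 4.3.3. Figures were drawn with matplotlib 3.10.9 in Python 3.11.15.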

Additional observations from a re-analysis of the deposited data

Results flagged for a closer look

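Blk had 4.38 CPM in old 3 while the other old livers had 1.06 to 1.61 CPM, a gap large for a group of this size by Dixon's criterion. For Swap70, old 3 had 36.3 CPM and the other old livers 30.2 to 31.0 CPM. The monocyte and neutrophil markers summed to 331 CPM in old 3 against 23.6 to 32.1 CPM in the other old livers, and the markers shared by all leukocytes to 182 CPM against 66.4 to 81.4 CPM. The heart muscle markers summed to 17.8 CPM in young 1 and to 120 to 150 CPM in the other young livers. These 5 came from 56 groups of values examined, and chance flags about 1 in 20 groups.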

How the results depend on the processing

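Counts behind most of these genes were small, and depth limits what could be seen of Cd79a, Ms4a1 and Pax5. The 1 member called, Cd79b, was called under 6 of the 19 alternatives that gave it a value, out of 22 tried. The count of members called was 0 without the low-count filter, with a filter on mean CPM (at least 1), with limma-voom, with old 1 halved (with the filter, and without it, which was chosen after seeing the data), without old 3 and old 4 together, and without young 2 to 5 together. It was 0 to 1 when single libraries were left out. The log2 fold changes of Cd79b (1.60 to 2.58), Cd22 (0.07 to 1.11) and Blk (0.09 to 1.01) were above 0 under every alternative that gave a value. Cd79b had none with that filter on mean CPM, with old 1 halved and without old 3 and old 4 together. The exact permutation p of Cd79b was 0.0159 to 0.0357 over its 13 alternatives, each the smallest that the group sizes allow, so these values say nothing about stability.

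The 128 genes called in all became 280 with totals-only scaling (72 higher, 208 lower, 25.7% higher against 65.6%), which put the all-gene median at -0.17 (log2) beside 0.01. They became 655 with DESeq2, 68 with limma-voom, 0 without young 2 to 5 together (429 at an unadjusted p under 0.05 by edgeR, with no other tool run there), and 30 to 201 when single libraries were left out. With totals-only scaling Cd79b kept its call (log2 2.13, adjusted p = 0.0415). Same-numbered livers shared only a number. Their deviations from the group means had correlations of -0.0976, 0.0960, 0.315 and -0.167 across genes. Among young 1 to 4, the liver of the same number had the highest correlation for 2 of 4 old livers, and young 5 was not compared. With the replicate number as a block, 43 genes and 0 members were called, and the adjusted p of Cd79b was 0.212. For the 7 alternatives that left Pou2af1 above 0.05 and the 1 that brought Pax5 under it, all leave-outs of 1 liver, the cause was not tested.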

Other observations

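Of the 7 genes of B cell precursors, 3 had most of their reads in old 3 (Dntt, Igll1 and Rag1). The list as a whole did not share this, with a sum of 24.3 CPM in old 3 and 4.23 to 21.4 CPM in the other old livers, beside 15.6 to 21.6 CPM in young livers, most of it from Cd93 and Il7r. Dntt, the polymerase that adds bases to immunoglobulin and T cell receptor joints, had 44 reads in old 3, 2 in old 1 and 0 in the other old and all young livers. Igll1, a surrogate light chain gene of B cell precursors, had 7 reads in old 3 and 0 in the other 8 livers. Rag1, a recombinase gene of B and T cell precursors, had 7 reads in old 3, 0 in the other old livers and at most 1 in young livers. Its partner Rag2 had 2 reads each in old 3 and old 1, and Vpreb1 had 0 in all livers. A count of 0 allows up to 3 reads. In the fit of all genes with a read, Dntt had an edgeR adjusted p of 0.426 and Igll1 of 0.445. These genes were named after their values were seen, and with 1 liver carrying most of the reads they describe that liver.

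Mzb1, a chaperone gene of plasma and marginal zone B cells, had 28 reads (0.987 CPM) in old 1 and 3 to 9 in the other old livers, beside 0 to 7 in young livers (edgeR adjusted p = 0.267 over all genes with a read). Ebf1, a B cell specification factor, had 18 reads in old and 8 in young livers (adjusted p = 0.331).

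The low values of Cd22 in old 2 and young 5 were shared by few genes. Both livers lay below 0.5 times the lowest of the other 7 for 8 of 12778 genes (0.0626%), a limit set after the values were seen. These were Cd22, Adh6, Sult4a1, Ky, Zfp39 and the 3 LOC genes closest to Cd22. Sult4a1 (0.0575 and 0 CPM) and Ky (0.0575 and 0.0513 CPM) lay under the floor in old 2 and young 5. Their lowest values in the other livers, 0.223 and 0.148 CPM, were near the floor too. Adh6, an alcohol dehydrogenase gene, had 0.287 CPM in old 2 and 0.359 CPM in young 5 beside 24.6 to 122 CPM in the other livers. The 2 livers came from different age groups, and the cause was not tested.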
